A study of Solanum lycopersicum with 6 samples.

Results

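Gibberellin oxidases are the dioxygenases that carry out the last steps of gibberellin synthesis and the main step of its removal. The tomato array held 13 probes for 11 such genes, out of 43603 probes, of which 2576 could be tied to a named gene. The members were chosen by name alone: a probe belonged where its RefSeq transcript is that of a gene whose symbol or synonym begins with GA20ox, 20ox, GA3ox, 3OH- or GA2ox. They comprised 4 GA20ox genes (GA20OX1, 20ox-2, 20ox-3 and GA20ox4), 2 GA3ox genes (GA3ox1 and 3OH-2) and 5 GA2ox genes (GA2ox1 to GA2ox5). GA2ox2 and GA2ox4 had 2 probes each and every other gene had 1. The reference gives SlGA3ox1 as a synonym of both GA3ox1 and 3OH-2, so the symbols are used here. Many probes of the array carry only an EST accession, and further gibberellin oxidases may be among them.

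Leaf discs, 1 cm wide, came from 4-week-old plants of Micro-Tom, a dwarf laboratory cultivar that carries a defective brassinosteroid oxidase gene. One group of 3 samples floated on 300 µM loliolide and the other on 0.1% methanol as control, in both cases for 12 h at 25 °C. The photoperiod recorded for all 6 samples was 16 h, with nights of 8 h. Whether the loliolide solution also held methanol is not stated in the labels. Separate plants are not named either, and the p-values therefore reflect only the spread among these harvested samples, which may be technical. Loliolide is a lactone that plants form from carotenoids, and the series asks which tomato genes respond to it.

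Gibberellins are growth hormones built from geranylgeranyl diphosphate, which is also the precursor of carotenoids. A GA20ox shortens the carbon skeleton, a GA3ox then adds the hydroxyl group that makes the hormone active, and a GA2ox adds a hydroxyl group that inactivates it. In Arabidopsis active gibberellin lowers the transcripts of several GA20ox and GA3ox genes and raises those of several GA2ox genes. The comparison therefore sets the synthesis genes (GA20ox and GA3ox) beside the inactivation genes (GA2ox).

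Each sample was read on its own 1-colour Agilent array, where 84.5% to 85.3% of non-control spots were well above background with methanol and 86.93% to 87.62% with loliolide. Precision is limited by the 3 arrays per group. The array of loliolide replicate 3 was dimmer, with a 75th percentile of 817.7 scanner units against at least 1048 on each other array. The 3 methanol arrays shared one slide and the 3 loliolide arrays another, so an effect of the slide and one of loliolide cannot be told apart in the values below. The arrays also read whole discs, where fewer cells of a type and less RNA per cell cannot be told apart. As a tissue check, all 9 probes of the chlorophyll-binding genes CAB4 and CAB6A stood well above background on every one of the 6 arrays. Of the 25 genes on the leaf list, the other 23 had no matched probe. The fruit marker list (2A11, E8, PG2 and the RIN genes) had 16 of 21 probes that were not well above background on any array, those of 2A11 among them. Its summed signal, in units of the 75th percentile, was 0.0734 to 0.0851 with methanol and 0.0917 to 0.109 with loliolide, and its part in the results was not tested. The only flower marker with a probe, AG1, was not well above background on any array, and read 2.04 to 2.80 scanner units with methanol and 2.82 to 7.36 with loliolide. The root list came down to RSI-1, whose 3 probes were well above background on every array. On the same scale as the fruit list, they summed to between 8.28 and 12.9 on methanol arrays and to between 11.7 and 14.7 on loliolide arrays. The part of the flower and root markers in the results was not tested either.

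No gibberellin oxidase passed the test. Of the 13 probes, 11 (9 genes) entered the fit over 37424 probes and 0 of them had a limma adjusted p under 0.05, where 0.783% of all tested probes passed. Among the probes above background on all 6 arrays, 3OH-2 read 3.62-fold and 1 probe of GA2ox2 1.87-fold the methanol level. GA2ox5 read 2.74-fold, but only 1 of its 3 methanol arrays was well above background, so its methanol level and its fold are uncertain. At an unadjusted p under 0.05 limma counted 6 of the 11 probes, all higher with loliolide, against 14.7% of all tested probes in this direction. The groups did not overlap, with loliolide on top, for 6 of the 11 probes, against 19.8% of all tested probes. GA2ox5 and 20ox-3 were tested because the loliolide arrays were above background. Entry through the group where a probe is high favours a difference, so nothing is read from GA2ox5 and 20ox-3 in these counts. Among the 9 probes above background on all 6 arrays, the groups did not overlap for 4, all higher with loliolide, against 18.9% of the 36143 such probes on the array. In median pixel signal minus local background, which is neither detrended nor scaled, the groups did not overlap for 3 of the 11 tested probes (3OH-2, GA2ox5 and A_96_P068741 of GA2ox2).

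**Figure D1:**
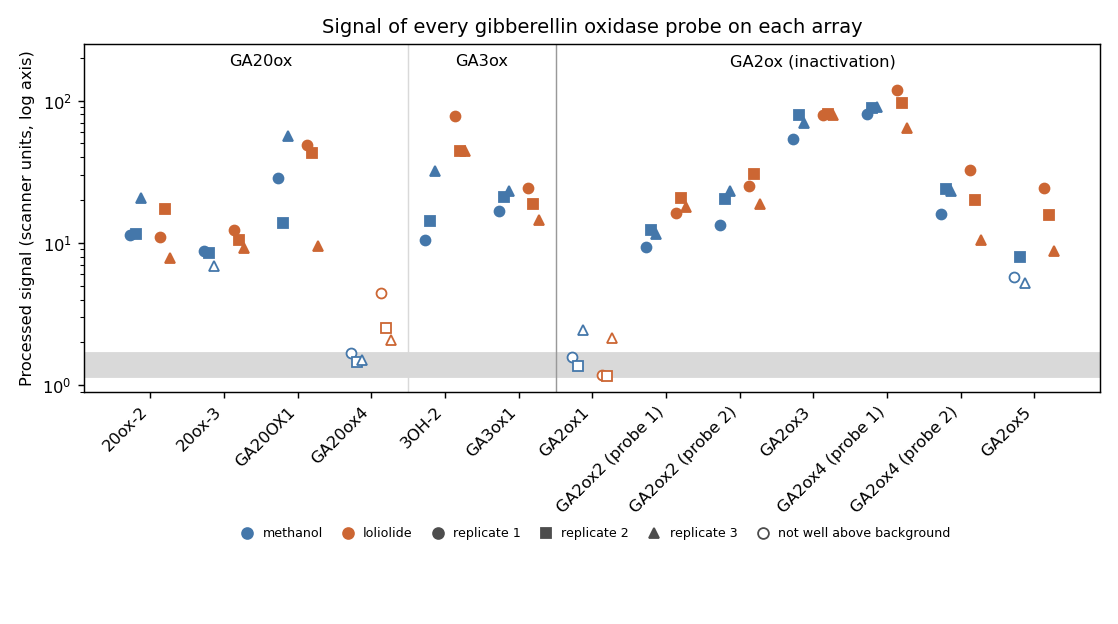
Processed signal of the 13 gibberellin oxidase probes in scanner units on a log axis, with 1 point per array, coloured by treatment and shaped by replicate. Open points were not well above background and the grey band spans the medians of the negative control spots on the 6 arrays. GA20ox4 and GA2ox1 are open on all 6 arrays, and the loliolide points of 3OH-2 all lie above its methanol points.

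The GA20ox genes, which act first in the group, had dim probes and values that mostly overlapped. GA20OX1 read 28.7, 13.9 and 56.0 scanner units with methanol and 48.9, 43.0 and 9.52 with loliolide, for replicates 1 to 3. Its highest methanol and its lowest loliolide array were both replicate 3, and the groups overlapped widely. After scaling, which takes the log2 of each signal relative to the array's 75th percentile, it averaged -5.30 ± 1.01 (SD, n = 3) with methanol and -5.17 ± 1.10 (SD, n = 3) with loliolide. The difference was 0.14 with a 95% interval from -1.46 to 1.74 (limma adjusted p = 0.93), so that changes of more than 2-fold in either direction lie within its error.

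The probe of 20ox-2 read 11.4, 11.6 and 20.7 with methanol and 11.02, 17.3 and 7.88 with loliolide. These groups also overlapped, and the log2 difference was -0.10 (95% interval -0.79 to 0.59, limma adjusted p = 0.877). The probe of 20ox-3 read 8.77, 8.45 and 6.87 with methanol, the last of which was not well above background, and 12.3, 10.5 and 9.14 with loliolide. In this processed signal every loliolide array of 20ox-3 was above every methanol array, by a margin of less than 1 scanner unit at the closest pair. In median pixel signal minus local background it read 12.5, 8 and 8 with methanol and 15, 13.5 and 10.5 with loliolide, and the groups overlapped. Its log2 difference was 0.59 (SE 0.13, limma adjusted p = 0.0998), or 0.25 after quantile normalisation. GA20ox4 read between 1.45 and 4.47 on the 6 arrays and was not well above background on any of them, so it has no fold. Negative control spots had medians of 1.14 to 1.67 on these arrays.

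The GA3ox genes, which make the active hormone, gave the highest and one of the lowest differences of the group. The probe of 3OH-2 read 10.6, 14.3 and 31.9 with methanol and 77.8, 44.4 and 44.5 with loliolide, and was well above background on all 6 arrays. Methanol replicate 3 was the highest of its group, and still lay under each loliolide array. The scaled log2 signal was -6.04 ± 0.82 (SD, n = 3) with methanol and -4.19 ± 0.43 (SD, n = 3) with loliolide. The difference was 1.86 (SE 0.42, 95% interval 0.85 to 2.86) and did not pass (limma adjusted p = 0.0998).

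The 3OH-2 groups did not overlap in the unprocessed signal either. Its median pixel signal minus local background was 10, 14 and 31 scanner units with methanol and 80, 45 and 44 with loliolide, against a local background of 28 to 32. Leaving out 1 array at a time moved the log2 difference between 1.52 and 2.31. The lowest limma adjusted p of these fits was 0.0508, without methanol replicate 3. With array weights, which give noisier arrays less say, the limma adjusted p of 3OH-2 was 0.0277. In that fit 5.08% of all tested probes passed. With normexp background correction the difference was 0.75 with an offset of 50 and 1.49 with an offset of 1.

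GA3ox1, the other gene of this step, read 16.8, 20.9 and 23.1 with methanol and 24.1, 18.9 and 14.6 with loliolide. Its groups overlapped and the scaled log2 difference was 0.09 (95% interval -0.30 to 0.48, limma adjusted p = 0.784). The interval of GA3ox1 ended below the lower end of that of 3OH-2, 0.85, but the difference between the genes was not tested.

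The GA2ox genes, which remove active gibberellin, had no value lower with loliolide among their 6 tested probes, although both GA2ox4 probes turned lower with spike-in scaling (-0.051 and -0.24) and the dimmer one also in 4 other alternatives. GA2ox5 read 5.80, 7.91 and 5.26 with methanol and 24.3, 15.7 and 8.74 with loliolide. It was well above background on 1 methanol array, replicate 2, and on all 3 loliolide arrays. GA2ox5 thus entered the test through its loliolide arrays, and nothing is read from its direction. The groups did not overlap, although loliolide replicate 3 was close to methanol replicate 2. The scaled log2 signal was -7.48 ± 0.30 (SD, n = 3) with methanol and -6.03 ± 0.56 (SD, n = 3) with loliolide, a difference of 1.45 (SE 0.30, 95% interval 0.74 to 2.16, limma adjusted p = 0.0847). In median pixel signal minus local background GA2ox5 read 6, 9 and 7 with methanol and 22.5, 12 and 10.5 with loliolide. The difference was 0.31 with normexp at an offset of 50, 0.64 at an offset of 1, and 1.15 to 1.71 without each array in turn. With array weights its limma adjusted p was 0.0226, in a fit where 5.08% of all tested probes passed.

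Both probes of GA2ox2 were higher with loliolide and both had groups that did not overlap after scaling. The probe A_96_P068741 read 9.41, 12.4 and 11.6 with methanol and 16.3, 20.6 and 17.8 with loliolide. It had the lowest adjusted p of the group, with a log2 difference of 0.90 (SE 0.16, 95% interval 0.52 to 1.29, limma adjusted p = 0.065). The brighter probe A_96_P268063 read 13.4, 20.5 and 23.2 with methanol and 25.0, 30.7 and 18.7 with loliolide. In these unscaled values loliolide replicate 3 lay within the methanol range, and it lay above that range once the dimmer array was scaled. The log2 difference of this probe was 0.58 (SE 0.21, limma adjusted p = 0.205). With array weights A_96_P068741 passed (limma adjusted p = 0.0219), as did 5.08% of all tested probes, and A_96_P268063 did not.

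GA2ox3 read 54.0, 78.7 and 69.9 with methanol and 79.4, 80.5 and 79.5 with loliolide. The loliolide arrays were close together and just above the highest methanol array in processed signal. In median pixel signal minus local background GA2ox3 read 45.5, 75 and 65 with methanol and 71, 69.5 and 72 with loliolide, and each loliolide array lay below methanol replicate 2. The scaled log2 difference was 0.45 (SE 0.17, limma adjusted p = 0.224), or 0.15 with spike-in scaling. The 2 probes of GA2ox4 had groups that overlapped. The brighter one, A_96_P075074, read 80.9, 88.8 and 89.9 with methanol and 119, 95.9 and 64.5 with loliolide, a log2 difference of 0.25 (95% interval -0.10 to 0.60, limma adjusted p = 0.377). The dimmer one, A_96_P198874, differed by 0.06 (95% interval -0.72 to 0.85, limma adjusted p = 0.935). GA2ox1 read between 1.17 and 2.44 on the 6 arrays, never well above background, and has no fold.

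The reference places GA2ox2, GA2ox4 and GA2ox5 close together on chromosome 7. No protein-coding gene lies between GA2ox4 and GA2ox5, and 6 lie between GA2ox2 and GA2ox4. These neighbours had log2 differences of 0.58 and 0.90 (GA2ox2), 0.25 and 0.06 (GA2ox4) and 1.45 (GA2ox5). The differences between neighbours were not tested, and neither was cross-hybridisation between related genes.

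**Figure D2:**
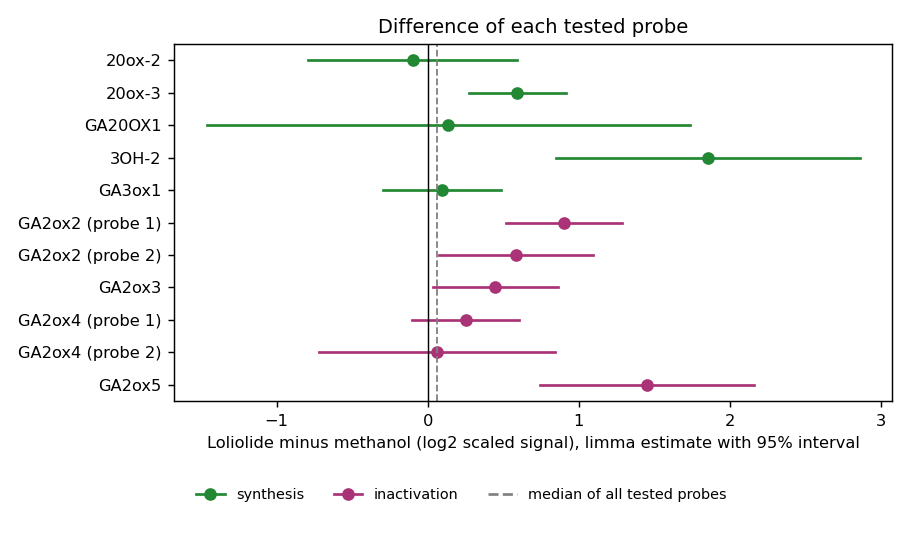
Log2 difference of loliolide minus methanol in scaled signal for the 11 tested probes, as limma's estimate with its 95% interval, in green for synthesis and purple for inactivation genes. The dashed line marks the median of all tested probes, 0.06. The intervals of 20ox-3, 3OH-2, both GA2ox2 probes, GA2ox3 and GA2ox5 lie above 0, and no probe passes after adjustment.

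Values of synthesis and inactivation genes overlapped. Each gene was represented by its brightest tested probe. The median log2 difference was 0.14 over 5 synthesis genes (4 higher, 1 lower) and 0.52 over 4 inactivation genes (4 higher). These counts and medians include GA2ox5 and 1 synthesis gene that were tested through their loliolide arrays. Nothing is read from the direction of these genes. The median over all tested probes was 0.06. Each side held a gene with a large value, 3OH-2 and GA2ox5, the latter tested through its loliolide arrays. Each side also held genes with smaller values, among them GA3ox1 (0.09) and GA2ox4 (0.25). Over probes above background on all 6 arrays, the inactivation median exceeded the synthesis median by 0.33. That filter leaves out both genes tested through their loliolide arrays. Over all tested genes the inactivation median exceeded the synthesis median by 0.38. For each array, the same contrast of medians on values centred per gene was -0.41, 0.11 and -0.26 with methanol and -0.09, -0.11 and 0.26 with loliolide, and these groups overlapped. Without loliolide replicate 3 the inactivation median was the lower one, at -0.063 relative to synthesis, and with GA2ox1 and GA20ox4 included the excess was 0.083.

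All members lay in the dim part of the array, where loliolide signals were higher in general. The tested members averaged between -6.83 and -3.56 on the scaled log2 level, a range that held 10091 tested probes. Of these, 73.1% were higher with loliolide, against 60.8% of all tested probes. The groups did not overlap with loliolide above for 30.3% of them, and their median difference was 0.20. Between levels of -7 and -6 the median difference was 0.34 over 2157 probes, or 0.26 over the 1442 of them above background on all 6 arrays. Between levels of 0 and 1 it was 0.02 over 3735 probes.

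The differences were also set beside those of all tested probes of like level. The difference of 3OH-2 exceeded that of 99.9% of the 2787 tested probes between levels of -6 and -5. The difference of GA2ox5 exceeded that of 98.4% of the 2157 probes between -7 and -6, but GA2ox5 entered the test through its loliolide arrays, so nothing is read from that share. The same holds for 20ox-3. For the GA2ox2 probe A_96_P068741 this share was 91.1%, for GA2ox3 87.8%, for A_96_P268063 86.4% and for 20ox-3 75.1%. It was 12.98% for 20ox-2 and between 29.3% and 69.96% for GA20OX1, GA3ox1 and the GA2ox4 probes. These shares describe single probes on 6 arrays and are not tests.

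**Figure D3:**
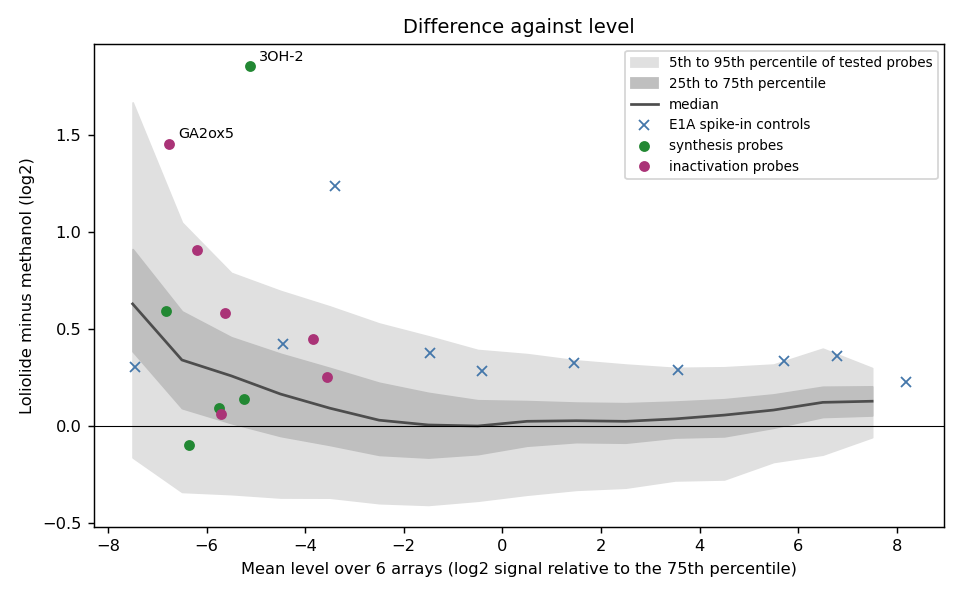
Log2 difference of loliolide minus methanol against the mean scaled log2 level over 6 arrays. Grey bands and line give percentiles and median of all tested probes in steps of 1 log2 unit, points the 11 tested gibberellin oxidase probes and crosses the 10 E1A spike-ins. The median of all probes climbs from 0.02 at levels of 0 to 1 to 0.34 at -7 to -6, and 3OH-2 and GA2ox5 are the members above the 95th percentile, the latter tested through its loliolide arrays.

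Control RNA added in the laboratory was also higher on the loliolide arrays. Of 10 E1A spike-ins, 9 differed by 0.23 to 0.42 between loliolide and methanol arrays after scaling, and (+)E1A_r60_3 differed by 1.24. It averaged -4.01 ± 0.06 (SD, n = 3) with methanol and -2.77 ± 0.07 (SD, n = 3) with loliolide. The part of such a shift in the values of 3OH-2 and GA2ox5 was not tested. With arrays scaled to the spike-ins, 3OH-2 differed by 1.55 (limma adjusted p = 0.179) and GA2ox5, tested through its loliolide arrays, by 1.15 (limma adjusted p = 0.191). This scaling moves all probes of an array by the same amount, so it cannot address a shift that changes with level.

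**Figure D4:**
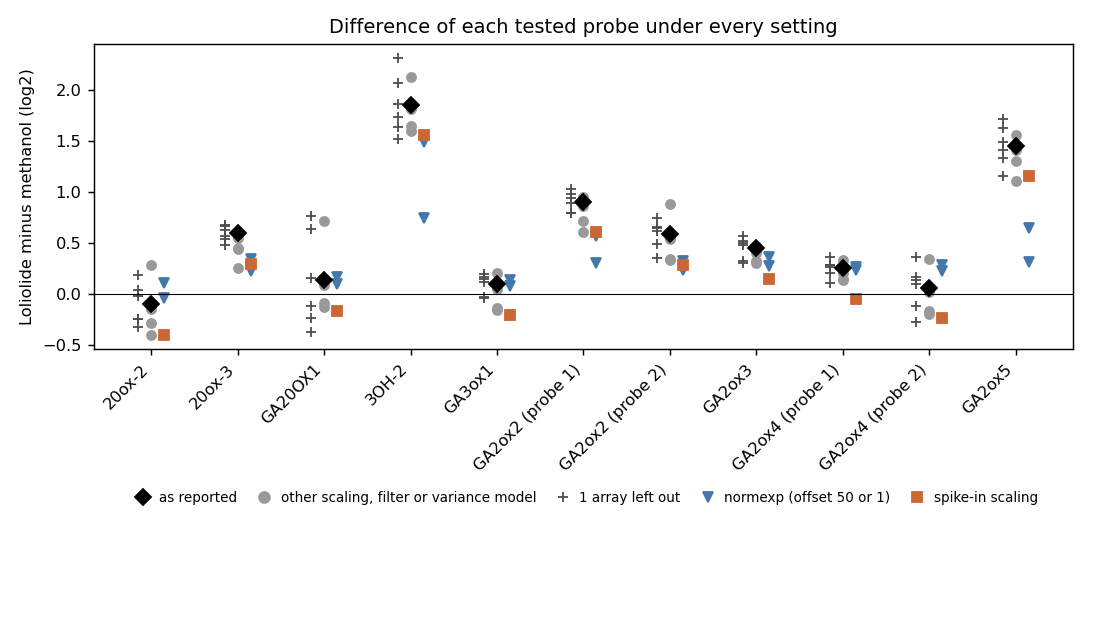
Log2 difference of loliolide minus methanol for the 11 tested probes under each processing setting, with the reported value as a black diamond. The points of 3OH-2 run from 0.75 with normexp at an offset of 50 to 2.31 without methanol replicate 3. Those of GA20OX1, GA3ox1, 20ox-2 and both GA2ox4 probes fall on both sides of 0, for the brighter GA2ox4 probe only with spike-in scaling.

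No tested gene of the other pathway lists passed, and several listed genes had no probe matched to them. Each gene is counted by its brightest tested probe, and other probes of a gene can differ from it. Of 4 early synthesis genes 3 were tested (TPS24 had no matched probe), 0 passed, 1 was higher and 2 were lower, with a median log2 difference of -0.04. CPS, the copalyl diphosphate synthase that opens the gibberellin branch, differed by 0.83 (SE 0.30, limma adjusted p = 0.201) with groups that did not overlap, and was above background on 1 of 3 methanol arrays. GGPS1 and GGPS2, which make geranylgeranyl diphosphate, differed by -0.18 and -0.04. Of 6 perception and signalling genes 3 were tested (GID1ac, GID1b-2 and GID2 had no matched probe) and 0 passed, with 2 higher and 1 lower and a median of 0.01. The DELLA repressor gene GAI differed by 0.01, the gibberellin receptor gene GID1b-1 by -0.06 and the O-GlcNAc transferase gene SPY by 0.19. Their dimmer probes differed by 0.15 (GAI), -0.21 (GID1b-1), and 0.26 and 0.43 (SPY).

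Genes known to respond to gibberellin in tomato or other plants gave 0 of 4 tested that passed, of 8 listed and 6 with a probe, with 3 higher and 1 lower and a median of 0.30. The expansin genes EXPA8 and EXPA4, whose products loosen cell walls, differed by 0.50 (SE 0.16, limma adjusted p = 0.172) and 0.22. The dimmer EXPA4 probe went the other way, at -0.08. RSI-1, a small cysteine-rich protein gene first described in auxin-treated roots, differed by 0.39. XET4, a xyloglucan endotransglycosylase gene, differed by -0.01, and its dimmer probes by 0.16 and -0.14. The mannanase genes MAN1 and MAN2 were not well above background on any array. Of 9 regulator genes 8 had a probe and 5 were tested, 0 of which passed, 4 were lower and 1 was higher, with a median of -0.15. Some knotted-like homeobox proteins lower a GA20ox gene in tobacco. Among tomato genes of this wider family, T6 differed by -0.59 (SE 0.26, limma adjusted p = 0.264), T12 by -0.15 and KN4 by 0.29. Whether these tomato genes act on a GA20ox gene was not tested. The light regulator HY5 differed by -0.20. The 8 probes of T12 ranged from -0.43 to 0.17.

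Likeness of pattern was measured over the 6 arrays as the root mean square difference between log2 values centred on each probe's mean, among 806 genes with a symbol other than a LOC number. The genes most like 3OH-2 were TGAS118 (0.48), lin5 (0.51) and TSI-1 (0.56). Those most like GA2ox5 were CPS (0.34), PR-1a1 (0.34) and lin5 (0.37). GA2ox5 and CPS were both tested through their loliolide arrays, so nothing is read from that pair. The centred values hold the difference between groups, which was 0.83 for CPS, 0.85 for PR-1a1 and 1.77 for lin5. It was 1.15 for TGAS118 and 1.21 for TSI-1. Shared regulation was not tested. None of the 13 gibberellin oxidase probes is among the 27 probes of the authors' deposited table of responsive genes.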

How the data were processed

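The authors deposited the scanner output of 6 Cy3 arrays, in which Agilent Feature Extraction had subtracted background from each spot's intensity and removed spatial trends, version 11.5.1.1 per the file headers and 9.1 per the submitters' processing notes. These intensity values are not normalised between arrays. Flags for signals well above background, saturation and outliers are those of the deposited files. The authors also deposited log2 ratios for 27 probes, used here only to count members listed.

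Each array was scaled to its own 75th percentile of non-control signals, on the log2 scale. Outlier spots (at most 5 per array) were left out, no spot was saturated, and repeat spots were averaged by probe. Testing was limited to probes that either group had well above background on its 3 arrays (37424 probes, with 6179 left out). The fit was that of limma 3.58.1 (R 4.3.3, lmFit, then eBayes), p-values were adjusted after Benjamini and Hochberg over all tested probes, and the threshold was 0.05. Genes were named through their RefSeq transcripts in assembly SLM_r2.1. The array files name no genome build, so no coordinates are given. On simulated data the fit was tested for recovery of known changes. The members and gene lists were chosen with earlier results of these data known. Every member is reported. From each pathway list up to 4 genes with the smallest p are named, and likeness was computed for 3OH-2 and GA2ox5. Alternatives covered background correction, scaling, filters, variance model, the replicate number as a block and each array left out. Normexp with an offset of 1 was added after seeing the data. With 3 arrays per group, an exact permutation test cannot go below a two-sided p of 0.1 and was not used.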

Additional observations from a re-analysis of the deposited data

How the results depend on the processing

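The count of gibberellin oxidase probes that passed was 0, and limma counted 6 at an unadjusted p under 0.05. It was 3 with array weights (3OH-2, GA2ox5 and the GA2ox2 probe A_96_P068741), where 5.08% of all tested probes passed against 0.783% as reported. GA2ox5 had entered through its loliolide arrays, so nothing is read from it in this count. The count was 0 under each other alternative, also without each array. The 293 probes that passed on the whole array became 95 with normexp at an offset of 50, 152 at an offset of 1, 107 with quantile normalisation, 102 with cyclic loess, 189 with median scaling, 63 with spike-in scaling, 190 when above background on all 6 arrays, 154 with trend and robust eBayes, 1900 with array weights and 0 with the replicate block (where limma counted 5186 at an unadjusted p under 0.05). Without each array they ranged from 0 (without loliolide replicate 1, where limma counted 5924 at an unadjusted p under 0.05) to 105 (without methanol replicate 3). The replicate block left 3OH-2 at a limma adjusted p of 0.244 and GA2ox5 at 0.231. Deviations of same-numbered arrays from their groups correlated at -0.16, -0.14 and -0.46, so the numbers were not taken as pairs. The excess of the inactivation over the synthesis median, 0.38, was 0.093 with normexp at an offset of 50, 0.083 without the filter on dim probes, and -0.063 to 0.58 without each array. 

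The differences of 3OH-2, GA2ox2 and GA2ox3 kept their sign in each alternative. Those of GA2ox5 and 20ox-3 did so in each alternative that gave a value. Both were tested through their loliolide arrays, and the filter for signal above background on every array left both out. Nothing is therefore read from their stable sign. The difference of 20ox-2 was 0.11 with normexp at an offset of 50, 0.28 with array weights and -0.32 to 0.18 without each array. That of GA20OX1 was -0.090 with quantile normalisation, -0.13 with cyclic loess, -0.17 with spike-in scaling and -0.38 to 0.77 without each array. That of GA3ox1 was -0.16, -0.14 and -0.21 in the same 3 scalings and -0.035 to 0.19 without each array. That of the brighter GA2ox4 probe was -0.051 with spike-in scaling. That of the dimmer one, A_96_P198874, was -0.20 with quantile normalisation, -0.17 with cyclic loess, -0.24 with spike-in scaling, -0.12 without methanol replicate 1 and -0.27 without loliolide replicate 1. Adding 50 before the log2 makes differences between dim signals smaller by construction. The cause of the other shifts was not tested. No fit with slide as a block was run, since each slide holds 1 group. Signal over background limits all members: GA20ox4 and GA2ox1 could not be measured, and no member exceeded 119 scanner units on any array.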
